A study of Mus musculus with 9 samples.

Results

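Resting mouse macrophages were described from the 3 untreated libraries of a series of 9 RNA-seq libraries made from BMDMs, macrophages grown in culture from bone marrow cells. The 3 libraries were chosen by their control label alone, and no value entered the choice. All 9 libraries came from wild type Balb/c mice with a labelled age of 6 weeks, and the other 6 libraries were treated with LPS (3 libraries) or with LPS plus BHB (3 libraries). The labels give neither the culture medium nor doses or times, and nothing in them says whether the replicates came from separate animals or cultures, so every SD measures only the spread between these libraries. No treatment comparison was made. Levels are given as counts, as a share of a library's counts, as CPM (counts per 1000000 counts of the library) and, where genes are compared with each other, as TPM, the counts per kilobase of annotated exons scaled to a sum of 1000000 in each library.

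Macrophages are tissue phagocytes that depend on the growth factor CSF1 and its receptor CSF1R, and PU.1 (encoded by Spi1) and C/EBP factors set up their gene expression. They engulf particles and dead cells, break them down in acid lysosomes filled with cathepsins, glycosidases and lipases, and hand the released cholesterol and iron to lipoproteins and ferritin. Before a microbial stimulus, sensors such as the Toll-like receptors are present while most cytokine genes are nearly silent. Many lysosomal genes carry the CLEAR element, an E-box bound by TFEB and its relatives.

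The windows of 4 promoters are shown because lysosomal genes were prominent among the most abundant transcripts. They run from 250 bases before to 50 bases after the annotated start, are taken from RefSeq on GRCm38.p6 and are written 5′ to 3′ on the gene's strand. Capitals mark TCACGTG, the core of the CLEAR element, on either strand. In the Ctsd window (chr7:142387778-142388077, minus strand) matches lay at positions -245 and -99 relative to the start. The Lamp1 window (chr8:13158911-13159210, plus strand) held 4 matches, and the window of the proton pump gene Atp6v1a (chr16:44139210-44139509, minus strand) held the motif at position -132. The window of Lyz2 (chr10:117282223-117282522, minus strand), the gene with the highest TPM, held none.
Ctsd: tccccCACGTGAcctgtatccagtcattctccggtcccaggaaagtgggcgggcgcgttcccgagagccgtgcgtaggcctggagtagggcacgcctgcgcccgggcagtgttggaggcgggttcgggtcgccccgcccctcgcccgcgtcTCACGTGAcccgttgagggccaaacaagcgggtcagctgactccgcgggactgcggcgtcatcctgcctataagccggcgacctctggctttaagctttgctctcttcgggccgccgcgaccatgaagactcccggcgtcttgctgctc
Lamp1: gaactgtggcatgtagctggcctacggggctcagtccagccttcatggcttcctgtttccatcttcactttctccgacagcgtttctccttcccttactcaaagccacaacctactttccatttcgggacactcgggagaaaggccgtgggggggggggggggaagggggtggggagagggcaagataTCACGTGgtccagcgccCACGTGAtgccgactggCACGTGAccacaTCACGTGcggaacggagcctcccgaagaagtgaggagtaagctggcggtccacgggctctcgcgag
Atp6v1a: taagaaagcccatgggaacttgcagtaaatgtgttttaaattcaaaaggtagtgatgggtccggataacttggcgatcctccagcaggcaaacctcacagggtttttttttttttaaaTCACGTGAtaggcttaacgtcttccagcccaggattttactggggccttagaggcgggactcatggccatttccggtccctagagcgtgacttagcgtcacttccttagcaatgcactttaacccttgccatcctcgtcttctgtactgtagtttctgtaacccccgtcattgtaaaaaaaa
Lyz2: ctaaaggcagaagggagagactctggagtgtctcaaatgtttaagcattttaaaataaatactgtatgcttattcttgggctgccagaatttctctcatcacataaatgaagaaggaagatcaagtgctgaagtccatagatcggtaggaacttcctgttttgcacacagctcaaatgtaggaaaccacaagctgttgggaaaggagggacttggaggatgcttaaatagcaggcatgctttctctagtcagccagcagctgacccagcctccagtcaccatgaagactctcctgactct

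Of the 63 genes on 3 lysosomal lists, 48 had a window under their symbol, and 13 of these (27.1%) held TCACGTG on either strand. The share was 4.29% of all 27025 genes with a window and 3.77% of all 32851 windows. The 13 genes were 4 of 11 proton pump genes (Atp6v0b, Atp6v0d1, Atp6v0e, Atp6v1a), 3 of 14 genes of the list of proteases and associated proteins (Ctsa, Ctsd, Lgmn) and 6 of 23 hydrolase and membrane genes (Gaa, Gla, Glb1, Ifi30, Lamp1, Mcoln1). None of the 16 macrophage identity genes with a window held it. Because the motif extended by a further A reads the same on both strands, 1 site can match on both. The PU.1-type core GAGGAAGT was in 4 of the 48 windows and in 3.69% of all genes with a window. It was in 0 of the 16 macrophage identity genes and 0 of 24 inflammatory genes. The TATA motif TATAAA was in 6 of the 48, in 15.7% of all genes and in 9 of 24 inflammatory genes (37.5%). These letters are a description of the windows; binding was not measured.

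The control libraries held 30809141, 32798920 and 31445850 counts, and 18723, 18728 and 18839 of the 46095 listed symbols had at least 1 count. Genes with at least 10 counts in every control library (13022) had chi-square per degree of freedom between libraries of 4.39 for replicates 1 and 2, 7.31 for 1 and 3, and 7.87 for 2 and 3, so that no pair agreed within sampling noise and each was counted separately. Spearman's rho across these genes, which are not independent replicates, was 0.995 to 0.997. Replicates 2 and 3 stood apart from replicate 1 in transcripts that are abundant in the treated libraries. Over 16 genes with at most 5 counts in replicate 1 and at least 20 CPM in each of the 6 treated libraries, the median level was 0.0236%, 0.744% and 0.884% of the treated mean in replicates 1, 2 and 3. These 16 genes were chosen for their low count in replicate 1, so the first value is set by the choice. The source of the transcripts was not tested. For inflammatory genes replicate 1 is given first, a choice made with these values known, with the other replicates beside it.

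Most of the defining macrophage markers were high in all 3 libraries. Fcgr1, Mrc1 and Mertk were lower, with a mean of 249, 244 and 74.9 TPM. Apoe, which encodes the apolipoprotein E that macrophages secrete with cholesterol, had 584699, 649080 and 576907 counts in replicates 1, 2 and 3, more than any other symbol, or 1.90% of all counts. Csf1r, the CSF1 receptor, had 90454, 96373 and 87054 counts and 1744 ± 44.96 TPM (SD, n = 3), rank 44 of 21110 protein-coding genes with a length. Adgre1, which encodes the F4/80 antigen, stood at 1068 ± 41.9 TPM, Cd68 at 3612 ± 14.1 and Itgam at 695 ± 22.5, although 68.3% of the 31-base words of Itgam also occur in transcripts of other genes. In bulk RNA, more cells of a type and more RNA per cell cannot be told apart.

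A small share of the genes held much of the RNA. The 608 ± 10.97 genes with the most counts in each library held 50% of them (604, 599 and 620 genes), and 4679 ± 15.9 genes held 90%. The 10 highest symbols took 13.3% ± 0.436 of the counts, the 20 highest 17.2% ± 0.454 and the 100 highest 28.0% ± 0.370. At a threshold of 1 TPM in the mean, 10632 protein-coding genes were present, 10412 of them in every library, while 6543 had no count at all. The 1513 genes at 100 TPM or more and the 84 at 1000 TPM or more form the upper end, against a median of 24.0 TPM for the genes at 1 TPM or more.

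The highest TPM belonged to Lyz2, on chromosome 10 at 117277331 to 117282321 (GRCm38, 1316 exon bases), which encodes the lysozyme that digests bacterial cell walls. Its TPM was 46396, 47247 and 39618 in replicates 1, 2 and 3 (44420.3 ± 4181), with replicate 3 lowest. Apoe, on chromosome 7 at 19696109 to 19699188, followed with 31079, 31991 and 30316. The ranges of these neighbours in the order did not overlap in any library, but with the length of the longest transcript in place of all merged exons Apoe ranked 1 and Lyz2 2. Of the 31-base words in Lyz2, 32.8% also occur in other genes' transcripts, against 0.0% in Apoe, and Lyz1, the closest relative of Lyz2, had only 334, 327 and 288 counts, so the division of reads between the lysozyme genes is uncertain. Of other genes named here, Eef1a1 shared 51.5% of its words, Jund 50.1%, Hbb-bs 54.4%, Rplp1 75.1% and Apoc2 78.8%.

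Psap and Ctsd held ranks 3 and 4. Psap encodes prosaposin, the precursor of the saposins that help hydrolases reach sphingolipids, and its TPM was 23739.8, 23437 and 22895. Ctsd encodes the aspartic protease cathepsin D and had 23173, 22924 and 22248, a range that overlaps that of Psap. Some 34.4% of the exon bases of Ctsd lie under exons of other annotated genes, and with the longest transcript Ctsd ranked 3 and Psap 6. The ferritin chains Ftl1 (17639.9, 18201 and 17692 TPM) and Fth1 (14559, 14977 and 14376 TPM), which store iron, held ranks 5 and 6, with Ftl1 higher in every library and 64.1% of its words shared with other genes. Mitochondrial COX1, a subunit of cytochrome c oxidase, followed with 12397 ± 178 TPM.

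The cysteine proteases Ctsb (10608 ± 149.6 TPM) and Ctss (9591 ± 368 TPM) held ranks 8 and 9, and Gpnmb, a glycoprotein of the lysosome and melanosome, rank 10 with 7044 ± 160.1 TPM. Next came Eef1a1 (6789.6 ± 97.6 TPM), the elongation factor that brings tRNA to the ribosome, cytoplasmic actin Actb (6252 ± 44.04 TPM) and the galectin Lgals3 (5498 ± 111 TPM). Sepp1, listed under an older symbol of the selenium carrier Selenop, reached 5180.0 ± 375 TPM and was lowest in replicate 3 (5399.7, 5393 and 4747). The remaining places to rank 20 were taken by B2m (5127 ± 267), the light chain of class I molecules, mitochondrial CYTB (4556 ± 131), the pore-forming Mpeg1 (4521 ± 30.1), the cathepsin inhibitor Cst3 (4229 ± 117), the actin monomer binder Tmsb4x (4223 ± 211) and the membrane protein Itm2b (4109 ± 139).

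The 13 highest genes had the same rank in all 3 libraries, and 14 of the 19 neighbouring pairs among the top 20 had ranges that did not overlap. The ranges of Psap and Ctsd, Sepp1 and B2m, CYTB and Mpeg1, Cst3 and Tmsb4x, and Tmsb4x and Itm2b overlapped. Within each library, however, Psap was above Ctsd. Genes of the 3 lysosomal lists made up 6 of the 20 highest, 14 of the 50 highest and 16 of the 100 highest. The 14 held 9.90% of the summed TPM and include the protease inhibitors Cst3, which is also among the 6, and Cstb. Ranked by counts, where long transcripts weigh more, the first 5 were Apoe, Ctsb, Psap, Lyz2 and Ctsd, and Ctsl (162640, 173331 and 161838 counts), the large scaffold gene Ahnak (99792, 105488 and 108835), Lpl (91252, 93367 and 105467) and Csf1r stood in the top 20 in place of B2m, CYTB, Cst3 and Tmsb4x.

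**Figure D1:**
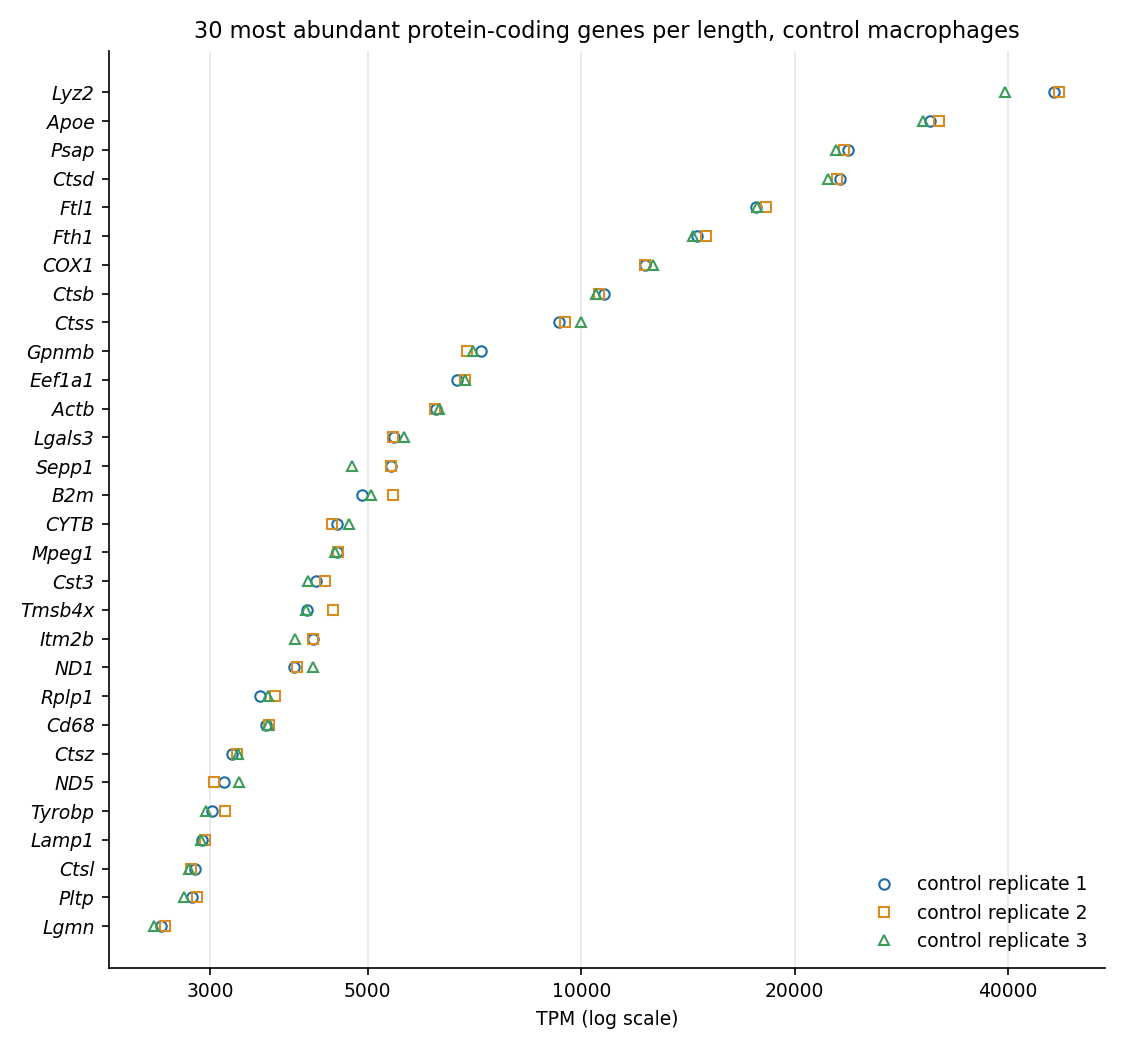
TPM (log axis) of the 30 protein-coding genes with the highest mean in each of the 3 control libraries, 1 symbol per library. Lyz2 stands at 39618 to 47247, and the libraries lie close together for most genes, with replicate 3 lowest for Lyz2 and Sepp1.

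Gene lists differed widely in their share of the counts; some genes stand on several lists, so shares do not add up. The 3 lysosomal lists together took 10.6 ± 0.154% of the counts with 63 genes, 62 of them at 1 TPM or more, and a median of 411 TPM against 1.12 over all 21110 protein-coding genes. The list of lysosomal proteases, their inhibitors and the associated proteins Psap and Grn took 7.03 ± 0.145%, of which Psap held 1.83% and Grn 0.244%, neither of them a protease. The next shares were macrophage identity genes with 5.52 ± 0.260%, lipoprotein and sterol genes with 3.38 ± 0.0555% and lysosomal hydrolases and membrane proteins with 3.00 ± 0.0299%. Cytoskeleton and motility genes followed with 2.71 ± 0.0421% and iron genes with 2.35 ± 0.0730%. Below these came translation factors with 1.16 ± 0.0103%, mitochondrially encoded genes with 1.11 ± 0.0151% and the 83 cytosolic ribosomal protein genes with 1.09 ± 0.0338%.

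**Figure D2:**
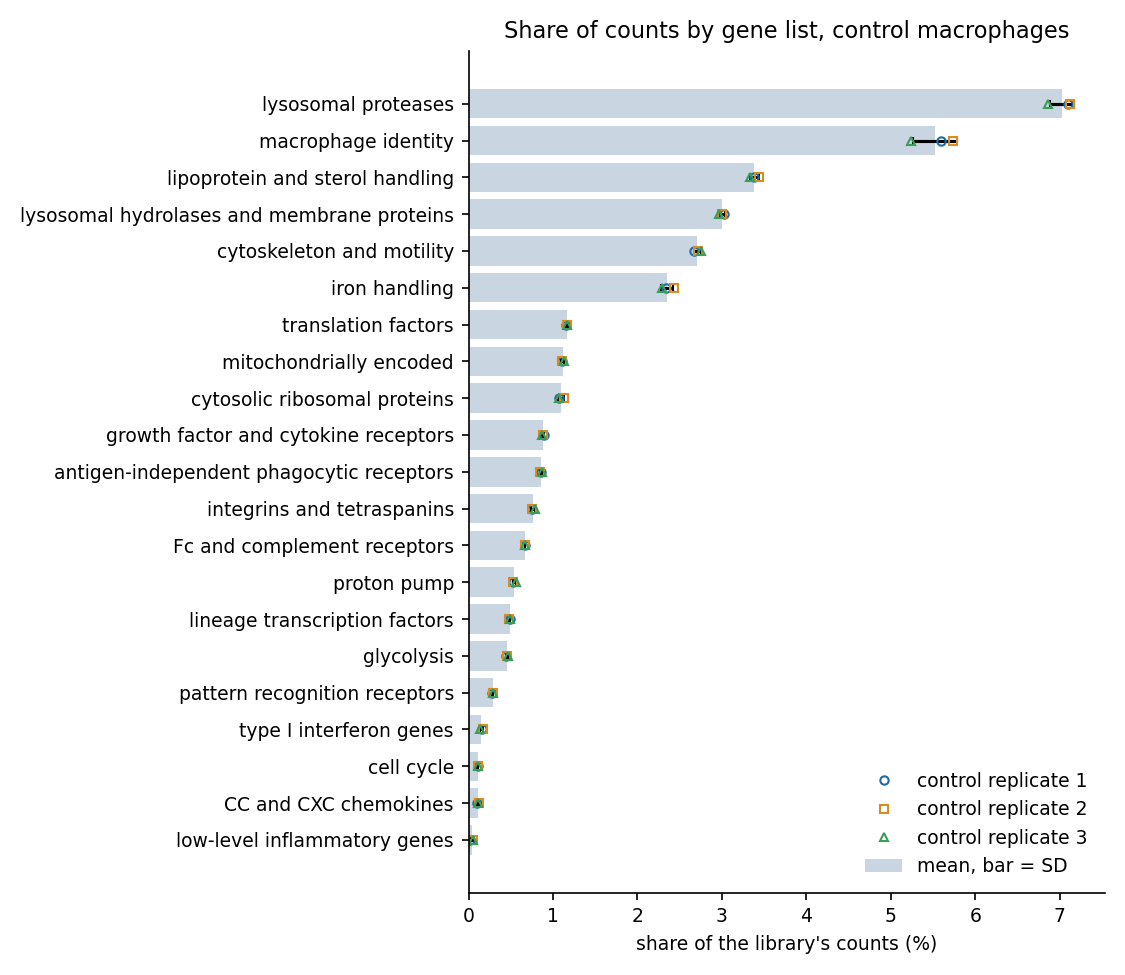
Share of each control library's counts (%) taken by 21 gene lists, as the mean (bar), the SD over 3 libraries (black line) and the value of each library (symbols). The list named lysosomal proteases, which includes inhibitors, Psap and Grn, leads with 7.03% and macrophage identity genes follow with 5.52%, while the inflammatory list is at most 0.0551% in any library.

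Every one of the 18 genes on the list of lysosomal proteases and associated proteins, which includes Psap, Grn and the inhibitors Cst3 and Cstb, was at 1 TPM or more, with a median of 2021 TPM and a median rank of 39.5. Beyond Psap, Ctsd, Ctsb, Ctss and Cst3, the list held Ctsz (3257 ± 31.9 TPM), a carboxypeptidase, Ctsl (2822 ± 23.9), an endopeptidase, the asparaginyl protease Lgmn (2547 ± 44.7) and the progranulin gene Grn (2459 ± 74.1). Ctsl had 162640, 173331 and 161838 counts and Lgmn 52149, 57079 and 51691. The low end was formed by Ctsf (25.6 ± 3.90), Ctsh (47.2 ± 2.14) and Ctso (48.9 ± 0.779), so that the list spanned almost 3 powers of 10. Of 17 neighbouring pairs in this order 13 had ranges that did not overlap.

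Hydrolases and membrane proteins of the lysosome took 3.00 ± 0.0299% of the counts, with 28 of 29 genes at 1 TPM or more and a median of 247 TPM. After Gpnmb the highest were Cd68 (3597, 3625 and 3614 TPM), the scavenger-like glycoprotein used as a macrophage marker, Lamp1 (2919.6, 2947 and 2911 TPM), a main protein of the lysosomal membrane, and Hexa (2222, 2234 and 2162 TPM), which trims gangliosides. The phospholipase-like Pld3 (1421 ± 32.1 TPM) and the acid lipase Lipa (1263 ± 32.4 TPM), which frees cholesterol from esters, also passed 1000 TPM. Only Ctns, the cystine exporter, was below 1 TPM, at 0.955 ± 0.0642. Laptm5, a lysosomal protein of blood cells, was listed with only 830, 553 and 479 counts although none of its words was shared with other genes.

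All 16 proton pump genes, whose V-ATPase acidifies the lysosome, were at 1 TPM or more and together took 0.541 ± 0.0190% of the counts. The highest were Atp6v0d2 (701, 689.7 and 744 TPM), Atp6v1a (592, 584 and 643 TPM) and Atp6v0a1 (556, 533 and 628 TPM). Atp6v0d2 is an alternative of the d subunit typical of osteoclasts and some macrophages, and its common form Atp6v0d1 stood at 317 ± 3.58 TPM. Atp6v0c, the proteolipid ring subunit, was listed at 24.01 ± 1.75 TPM while a processed pseudogene of it, Atp6v0c-ps2, was at 3354 ± 80.4 and shared 95.6% of its words with other genes. Atp6v0c itself shared 11.9%, and how reads were divided between the pair of symbols was not tested.

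Among 24 macrophage identity genes 21 were at 1 TPM or more. After Lyz2, Apoe, Mpeg1 and Cd68 came Tyrobp (3015, 3148 and 2952 TPM), the DAP12 adaptor of activating receptors, Cd36 (1873, 1827 and 2123 TPM), a scavenger receptor for oxidized lipoprotein, and Sirpa (1326 ± 31.7 TPM), the receptor of the CD47 signal. Trem2, a lipid-sensing receptor that signals through DAP12, was at 668 ± 13.6 TPM. Several markers of resident tissue macrophages were low or near 0, although Siglec1 on the same list stood at 77.3 TPM. Marco, found in the marginal zone and the alveolus, had 1, 0 and 0 counts, the complement receptor Vsig4 of Kupffer cells 6, 2 and 12, the phosphatidylserine receptor Timd4 16, 15 and 20 and the haemoglobin receptor Cd163 68, 89 and 81. Cx3cr1, high in microglia, was at 8.67 ± 1.35 TPM.

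Lineage transcription factors formed a middle tier: 24 of 26 were at 1 TPM or more, with a median of 92.98 TPM and 0.489 ± 0.00731% of the counts. Among them Spi1 (PU.1) had 575, 581 and 566 TPM, Cebpa 473, 417 and 442 and Irf5 340.3, 329.9 and 345. These 3 did not overlap with one another. Irf8 stood at 188 ± 3.24 TPM and Maf at 164 ± 13.9. The regulators of lysosomal genes were lower, with Mitf at 120.5 ± 8.50, Tfe3 at 70.2 ± 0.630, Tfeb at 64.1 ± 1.68 and Tfec at 8.53 ± 0.608 TPM. Gata6, the factor of peritoneal macrophages, had 0, 1 and 3 counts, whereas Pparg stood at 58.3 TPM and Bhlhe41 at 49.0 TPM.

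Receptors for growth factors and cytokines took 0.880 ± 0.00963% of the counts, of which Csf1r held 0.288%, with a TPM of 1780.3, 1759 and 1694. Tnfrsf1b, a TNF receptor, was second with 1149 ± 16.4 TPM, followed by the GM-CSF receptor chain Csf2ra (367 ± 22.2) and the interferon-gamma receptor Ifngr1 (364 ± 12.6). In all 22 of 26 were at 1 TPM or more. The 4 below it were the receptors Kit and Flt3 of progenitors (0.241 ± 0.114 and 0.0296 ± 0.0276 TPM) and the interleukin 1 receptors Il1r1 (0.473 ± 0.219) and Il1r2 (0.584 ± 0.279). Of their ligands, Csf1 stood at 7.35 ± 0.815 TPM with 314, 351 and 389 counts, and Csf2 had 0, 16 and 13 counts.

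Receptors that take up particles without antibody held 16 of 20 genes at 1 TPM or more and 0.856 ± 0.0118% of the counts. Cd36 was highest, then Gas6 (665 ± 31.99 TPM), which bridges phosphatidylserine to TAM kinases, the beta-glucan receptor Clec7a (527 ± 6.71) and Lrp1 (461 ± 27.9), an endocytic receptor of many ligands. The TAM kinases themselves were uneven, with Axl at 149.7, 172 and 155, Mertk at 80.5, 73.2 and 70.97 and Tyro3 at 0.238, 0.425 and 0.199 TPM. Their ranges did not overlap.

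Fc and complement genes were nearly all present, 16 of 17, with a median of 437 TPM. The integrin chain Itgb2 led with 1287 ± 113 TPM, followed by Fcer1g (1098 ± 23.4), the signalling chain of Fc receptors, properdin Cfp (1092 ± 106) and the C3a receptor C3ar1 (979.5 ± 4.12). The 3 chains of complement C1q were all detected, with C1qb at 661, 686 and 617, C1qc at 518, 564 and 474 and C1qa at 269.7, 289.6 and 255 TPM. Factor B, Cfb, was the member below 1 TPM with 0, 0 and 4 counts. It lies in a stretch of chromosome 17 where many genes were at 0 and shares 75.5% of its words with other genes, so its count cannot be read as absence.

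Sensors of microbial products took 0.285 ± 0.00486% of the counts, and 26 of 29 were at 1 TPM or more with a median of 37.1 TPM. Cd14, which hands LPS to TLR4, was far above the other members with 1179.9, 1252 and 1251 TPM. Of the Toll-like receptors, 3 nucleic acid sensors of endosomes were highest, with Tlr8 at 495, 483 and 473, Tlr13 at 316, 309 and 342 and Tlr7 at 199, 204 and 203 TPM. The surface receptors Tlr4 (123, 120.0 and 123 TPM) and Tlr2 (76.1, 87.9 and 82.6 TPM) were lower in every library, and Ly96, the MD-2 partner of TLR4, stood at 47.4 ± 1.72. The other endosomal sensors Tlr9 (40.96 ± 1.86 TPM) and Tlr3 (12.8 ± 0.562) were lower still. Tlr5, Tlr11 and Tlr12, which sense flagellin and profilin, were below 1 TPM at 0.847 ± 0.325, 0.0567 ± 0.0213 and 0.0595 ± 0.0745.

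Paired and inhibitory receptors had 19 of 22 members at 1 TPM or more, with Tyrobp, Sirpa, Fcer1g and Trem2 highest; Trem1 had 0, 4 and 1 counts. Integrins and tetraspanins had 22 of 24, led by Itgb2, the tetraspanins Cd53 (972 ± 17.8 TPM), Cd63 (815, 835 and 824) and Cd9 (708 ± 49.5). Among receptors for chemokines and formyl peptides, 12 of 15 passed 1 TPM, led by C3ar1, Cxcr4 (661 ± 9.90 TPM) and C5ar1 (296 ± 13.2). Ccr2, the receptor of monocyte egress, stood at 42.6, 45.7 and 56.7 TPM and was highest in replicate 3.

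Genes of lipoprotein and sterol handling were all at 1 TPM or more, 25 of 25, and Apoe made up most of their 3.38 ± 0.0555%. Pltp, a phospholipid transfer protein, followed with 2826, 2872 and 2752 TPM, the lipid droplet coat Plin2 with 1805, 1798 and 1683 and lipoprotein lipase Lpl with 989.7, 939 and 1131. The cholesterol exporters Abcg1 (357 ± 11.5 TPM) and Abca1 (300.1 ± 11.1) stood well above the sterol synthesis gene Hmgcs1 (48.3 ± 3.24). Apoc1 and Apoc2, which lie beside Apoe in the genome, were at 8.10 ± 1.85 and 1.54 ± 0.131 TPM.

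Iron genes were likewise all present, 14 of 14. After the ferritin chains the highest was Hmox1 (857, 867 and 858 TPM), which opens haem, then the phagosomal metal transporter Slc11a1 (427 ± 7.15) and Blvrb (199 ± 3.72). The iron exporter Slc40a1 (164, 153 and 118 TPM) and the transferrin receptor Tfrc (197, 180.4 and 158 TPM) were of similar size. Their ranges overlapped, but Tfrc was higher in every library. Of 20 antioxidant genes all were at 1 TPM or more, led by Prdx1 (2063 ± 225 TPM), Gpx1 (1215 ± 40.4), Cat (659 ± 10.9) and Txn1 (613 ± 27.7). The NADPH oxidase, which makes superoxide in the phagosome, had all 7 subunits, with Cyba at 2259, 2220.5 and 2189 and its partner Cybb at 654, 705 and 717 TPM.

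The list of cytoskeleton and motility genes, which includes galectins and annexins, had a median of 583 TPM, with 31 of 31 at 1 TPM or more. Actb, Lgals3 and Tmsb4x led, followed by Lgals1 (2291 ± 65.6 TPM) and the annexin Anxa1 (1469 ± 91.6). Profilin, Pfn1, was an outlier at the low end with 441, 377 and 349 counts, although only 0.3% of its words were shared with other genes. Matrix genes were uneven, 18 of 22 at 1 TPM or more. Osteopontin Spp1 had 16547, 17295 and 15486 counts and the macrophage elastase Mmp12 63255, 65938 and 85226, so Mmp12 was highest in replicate 3 while Spp1 was not. Timp2 (688 ± 14.6 TPM) exceeded Timp1 (4.76 ± 1.81) in every library, and the metalloprotease Adam8 stood at 541 ± 6.65.

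Growth factors were led by Gas6, Igf1 (365, 357 and 365 TPM), Tgfb1 (349, 341 and 334 TPM) and Pdgfb (119.7 ± 5.03). Of 17 on the list 14 were at 1 TPM or more, and Csf3 had no count in any control library.

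Glycolysis genes were at 1 TPM or more in 21 of 21 cases, with Aldoa (1196 ± 36.3 TPM), Pkm (973 ± 59.9), Ldha (451 ± 17.98) and the hexokinase Hk3 (421 ± 13.9) highest. The exception in size was Gapdh, a standard reference gene, with 121, 115 and 111 counts (3.09 ± 0.208 TPM). It shared 28.1% of its words with other genes, and another reference gene, Ppia, shared 20.9% and stood at 3.70 ± 0.0757 TPM. Such values cannot be read as low expression, and what lowered them was not tested. All 22 genes of the tricarboxylic acid cycle passed 1 TPM, with Idh1 (592 ± 3.87 TPM), Sdhd (284 ± 11.2) and Sdha (202 ± 6.80) highest.

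The labels do not spell out BHB, an abbreviation commonly used for the ketone body beta-hydroxybutyrate, and the genes that handle ketone bodies were among the lists. Oxct1, which acts on acetoacetate in mitochondria, had 247, 241 and 247 TPM. Bdh1, the mitochondrial dehydrogenase of beta-hydroxybutyrate, was at 1.08, 1.27 and 1.07 TPM with 37, 47 and 37 counts, far below Oxct1 in every library. Hcar2, a receptor for beta-hydroxybutyrate and niacin, had 11, 82 and 87 counts, so replicate 1 was lower than both others as for the inflammatory genes. All 17 histone deacetylase genes on the list were at 1 TPM or more, with Sirt2 (128 ± 2.22 TPM), Hdac5 (72.1 ± 0.761), Sirt7 (54.8 ± 2.39) and Hdac3 (35.8 ± 0.228) highest.

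The 83 cytosolic ribosomal protein genes had a median of 142 TPM and 77 of them were at 1 TPM or more. Rplp1 (3615 ± 86.9 TPM), Rps15 (1856 ± 35.5) and Rpl8 (1133 ± 23.2) were highest, whereas Rps28 had 0, 0 and 0 counts and Rps18 4, 2 and 0. Both encode standard subunits of the ribosome. The 11 genes with under 10% of words shared had a median of 146 TPM, the 64 with 10% to 50% shared 106 TPM and the 8 with more 464 TPM, with wide ranges in each bin. The part of shared sequence in these levels was not tested.

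Mitochondrially encoded genes differed from one another by more than 3 powers of 10. COX1, CYTB (4556 ± 131 TPM), ND1 (4029 ± 131) and ND5 (3153 ± 129) were high, while COX2 was at 46.05 ± 15.8, ATP6 at 26.9 ± 12.98, COX3 at 23.8 ± 14.4, ND4L at 8.33 ± 4.83 and ND3 at 2.54 ± 0.598 TPM. These 5 low genes shared 98.1% to 100% of their words with transcripts of other genes. ND1 shared 0.0%, CYTB 6.6% and ND5 16.8%, although COX1 shared 63.9% and stayed high, and ATP8 shared 7.5% and was at 5.11 ± 2.95. All 13 genes are on 1 circular genome transcribed as long precursors, and the 1.11% of counts they hold is not a measure of mitochondrial content.

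**Figure D3:**
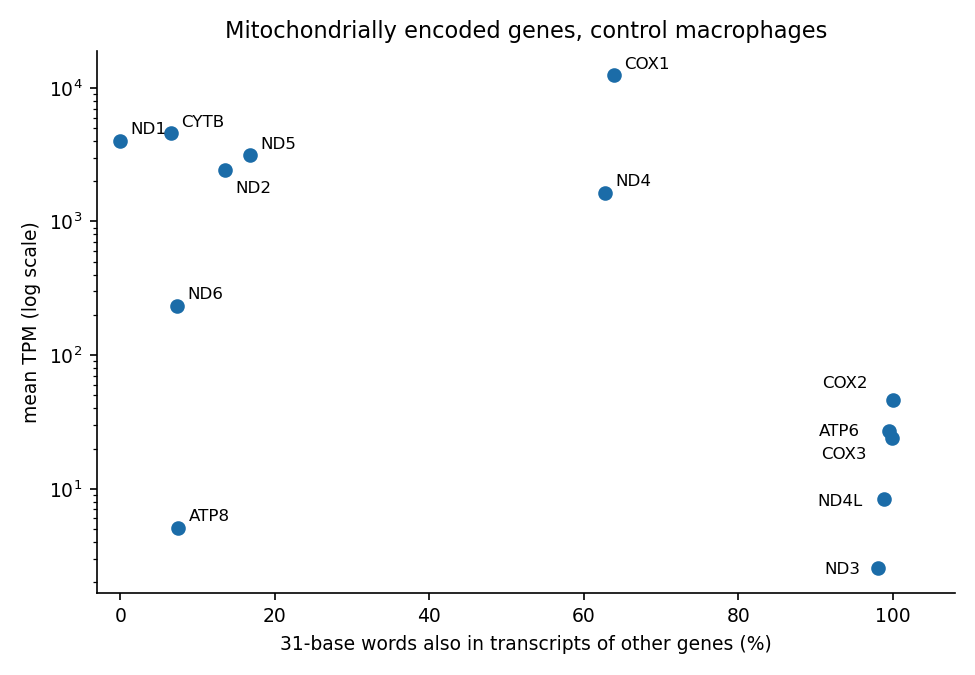
Mean TPM over 3 control libraries (log axis) of the 13 mitochondrially encoded genes against the share of their 31-base words also found in transcripts of other genes (%). The 5 genes at 98.1% or more lie between 2.54 and 46.05 TPM, and ATP8, at 7.5%, lies low as well.

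Cell cycle genes were all detected at 1 TPM or more, 32 of 32, with a median of 10.7 TPM. Pcna, the DNA polymerase clamp, was highest with 402, 395 and 471 TPM, followed by the inhibitor Cdkn1a (124, 122 and 115), Cdk4 (86.7 ± 4.54) and the inhibitor Cdkn1b (57.5 ± 2.96). Mki67, a marker of cycling cells, had 1175, 1393 and 1776 counts and was highest in replicate 3, as was Pcna. Of 70 replication-dependent histone genes only 19 were at 1 TPM or more, with Hist1h1c (211 ± 15.4 TPM), Hist1h2al (76.3 ± 7.59), Hist2h2aa1 (46.2 ± 4.49) and Hist1h2bc (39.7 ± 2.92) highest. Hist2h2aa1 shared 100% of its words with other genes, Hist1h2al 81.9% and Hist1h2bc 33.5%, so this order is uncertain. Immediate early genes, which respond within minutes to handling or stimulation, were present in 19 of 21 cases, led by Atf3 (640.3, 637 and 732 TPM), Jund (522 ± 9.72), Fos (264, 258 and 258) and Junb (248 ± 5.66).

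The chemokines Ccl6 and Ccl9, both ligands of CCR1, stood far above the rest. Ccl6 had 902, 909.9 and 809 TPM and Ccl9 578, 614 and 528 TPM, whereas the list's median was 3.21 TPM and 15 of 23 were at 1 TPM or more. Cxcl14 stood at 73.6 ± 6.11 TPM, and Pf4, also a platelet gene, at 2.51 ± 0.403. Genes of the type I interferon response were at 1 TPM or more in 23 of 24 cases, with a median of 45.9 TPM. Ifitm3 (1496, 1646 and 1424 TPM) and the viral tether Bst2 (326, 355 and 283 TPM) led, then Irf7 (106, 131 and 92.1) and Oas2 (109, 105 and 90.3). The list's share of counts was 0.161%, 0.168% and 0.131% in replicates 1, 2 and 3, so replicate 3 was lowest here.

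Antigen presentation genes could be read only in part. B2m (4909, 5426 and 5048 TPM) and Cd74 (1936, 2109.8 and 1876 TPM), the invariant chain of class II molecules, were high, and the class I heavy chain H2-K1 stood at 212 ± 6.73. In contrast H2-Aa had 0, 0 and 0 counts, H2-Ab1 10, 20 and 20, H2-D1 2, 2 and 0 and Tap1 55, 31 and 23. These 4 genes lie on chromosome 17, where 27 coding genes in a row between 35016579 and 35253707 (GRCm38), Tnf among them, had 0 counts in all control libraries. From 34016579 to 36253707, 69 of 121 coding genes were at 0 and 23 at 1 TPM or more, whereas 30.99% of all coding genes were at 0. A zero there cannot be read as silence, and the reason was not tested.

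Inflammatory genes were low but not absent in replicate 1. The 32 genes summed to 5537 counts or 0.0180% of that library (exact binomial 95% interval 0.0175% to 0.0185%, counting error only), against 0.0510% and 0.0551% in replicates 2 and 3. In replicate 1, 6 genes had 0 counts, among them Tnf, which lies in the chromosome 17 run where a zero cannot be read as silence. Of all 32 genes, 12 had at most 10 counts there and 9 had at least 100. The highest were the arginine transporter Slc7a2 with 1716, 2562 and 2952 counts in replicates 1, 2 and 3, Marcksl1 with 782, 1133 and 985, interleukin 1 beta Il1b with 654, 1504 and 1283 and the sensor Clec4e with 650, 1554 and 1533. Of the chemokines on the list, Ccl3 had 437, 961 and 938 counts and Ccl4 393, 625 and 586. Il18, which macrophages keep as a precursor, ran the other way with 187, 113 and 141.

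Several genes had far fewer counts in replicate 1 than in replicates 2 and 3. Acod1, which makes itaconate, had 24, 1739 and 1808 counts, Il1a 17, 912 and 1043, Cxcl1 39, 1105 and 1231 and the prostaglandin synthase Ptgs2 43, 662 and 653. Il12b had 0, 223 and 213 counts, Il23a 1, 247 and 268 and the nitric oxide synthase Nos2 0, 67 and 55. For Il1a the 17 counts of replicate 1 have an exact Poisson interval of 9.90 to 27.2, and for Acod1 the interval is 15.4 to 35.7. For a count of 0 the same exact interval reaches 3.69 counts, while the simpler floor of 3 counts corresponds to 0.0974 CPM in replicate 1. Replicate 1 was below both others in 24 of the 32 genes, and both others were over 2 times higher in 19. Over the 13022 genes with at least 10 counts in every control library, 1.95% differed at least 2-fold between replicates 1 and 2. Between replicates 1 and 3 it was 2.00%, in either direction. The share of all genes that were lowest in replicate 1 is not given here. At 1 TPM or more there were 18 of 32 genes in replicate 1 and 24 of 32 in the mean of 3. Relative to the treated libraries, the list's median was 0.314%, 1.00% and 1.13% of the treated mean in replicates 1, 2 and 3 (31 genes with a count there).

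**Figure D4:**
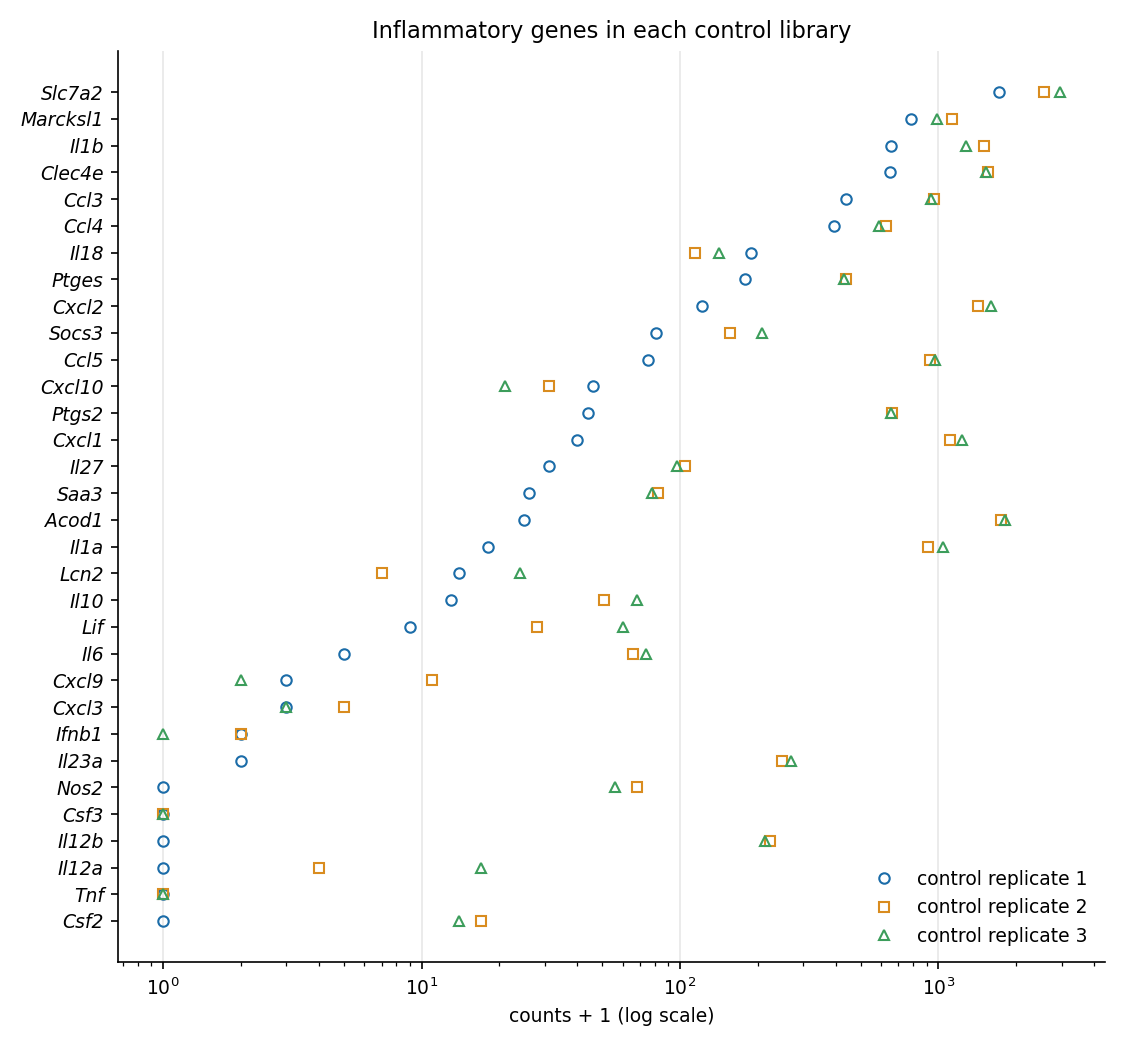
Counts plus 1 (log axis) of the 32 inflammatory genes in each control library, ordered by replicate 1. Replicate 1 lies left of the others for 24 genes, such as Acod1 with 24 against 1739 and 1808, while Il18 and Cxcl10 are highest in replicate 1.

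Of 14 markers of alternative activation, the interleukin 4 response, 6 were at 1 TPM or more, against 10632 of all 21110 protein-coding genes. Their median was 0.767 TPM, against 1.12 TPM over all protein-coding genes. Mrc1, the mannose receptor, had 259, 251 and 222 TPM and fibronectin Fn1 98.2, 90.6 and 135, and the next, Ccl24, 10.5 ± 2.07. Arg1 had 1, 0 and 9 counts, Retnla 0, 0 and 0, Chil3 12, 8 and 18 and Mgl2 10, 3 and 4.

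Defining markers of other cell types were mostly low or at 0. None of 7 T and NK cell genes reached 1 TPM, with 0 counts of Cd3e and Cd3g in every library, and none of 6 mast cell and basophil genes did. In the B cell list only Cd79b did (104, 106 and 61 counts), with Ms4a1 at 0, 2 and 2 counts, and in the erythroid and megakaryocyte list only Pf4 did, with Hbb-bs and Gp9 at 0 counts. The 10 neutrophil and precursor genes summed to 0.000652% to 0.000789% of the counts in the 3 libraries, and 4 of them were at 1 TPM or more. These were S100a9 (12.3 ± 2.83 TPM), S100a8 (9.21 ± 1.41), Ngp (4.33 ± 0.926) and Ltf (1.14 ± 0.269), with 45, 76 and 54, 60, 50 and 63, 54, 38 and 51, and 44, 34 and 29 counts, while Mpo had 12, 6 and 7 and Ly6g 0, 1 and 1. Of monocyte markers Ly6c2 had 8, 8 and 0 counts and Plac8 5, 1 and 5 against 2535, 2929 and 3414 for Ccr2. Dendritic cell genes other than Itgax (416, 378 and 518 TPM), which macrophages also express, were at 1.59 ± 0.315 TPM (Ccr7) or lower, with Flt3 at 0, 2 and 3 and Xcr1 at 0, 1 and 0 counts. Stromal and endothelial genes reached at most 4.95 ± 0.494 TPM (Kdr), with Col1a1 at 36, 35 and 126 counts. The osteoclast list had 4 of 7 at 1 TPM or more, against 10632 of all 21110 protein-coding genes. Ctsk (104, 99.8 and 128 TPM) and Acp5 (43.6, 43.2 and 52.3 TPM), which macrophages also express, were highest. Dcstamp and Mmp9 (mean 19.4 TPM) followed, while Calcr was at 0 counts and Ocstamp at 4, 2 and 15.

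**Figure D5:**
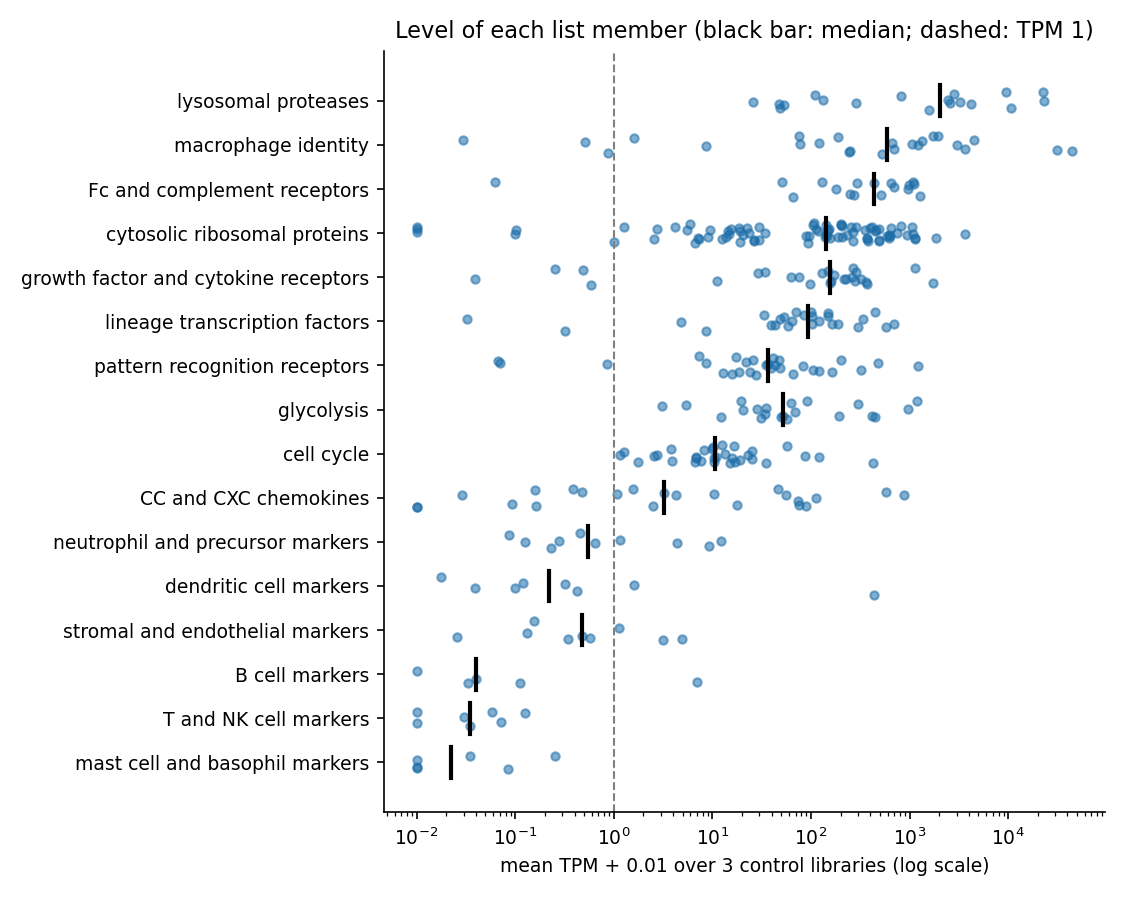
Mean TPM plus 0.01 (log axis) over 3 control libraries of each member of 16 gene lists, with the list median as a black bar and a dashed line at 1 TPM. The list named lysosomal proteases, with inhibitors, Psap and Grn included, has a median of 2021 TPM, and the lists of lymphocyte, mast cell, dendritic and stromal markers lie mostly below 1 TPM, apart from Itgax at 437.

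Nearly all counts were in protein-coding genes, 97.9% ± 0.0166. Processed pseudogenes held 0.809% ± 0.0134 and long intergenic RNAs 0.574% ± 0.0240. Of the latter Neat1, the scaffold of paraspeckles, had 76965, 76449 and 76724 counts, the nuclear Malat1 38958, 38615 and 45329, and Xist, which coats the inactive X chromosome, 33039, 34681 and 36046. Those 3 RNAs held 0.242%, 0.129% and 0.109% of the counts. Only 3 of 211 genes of the Y chromosome had any count. Chromosome 7, which carries Apoe, Ctsd and Ftl1, held 10.3% ± 0.144 of the counts and chromosome 10, with Lyz2 and Psap, 8.41% ± 0.180, the largest shares of any chromosome.

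Most genes varied little between the control libraries. Over 10333 genes with a mean of at least 100 counts the coefficient of variation of CPM had a median of 4.72% and quartiles of 2.76% and 7.96%. It was 50% or more for 19 genes, 12 of them lowest and 6 highest in replicate 1. The endosomal recycling gene Ehd1 varied most, with 254, 26 and 23 counts and a coefficient of 133%, followed by Cd28 (86.9%), Il12b (86.6%), Il23a (86.6%) and Il1a (85.3%). Cd28, a costimulatory receptor of T cells, had 245, 62 and 65 counts and was highest in replicate 1, while Cd3e, which marks T cells, was at 0 in every library.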

How the data were processed

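The authors deposited 1 table of raw counts, with a row for each gene symbol and a column for each library. Per the submitters' processing notes reads were aligned with HISAT2 to mm10, and RNA was isolated with Trizol, per the labels' protocols. The counter, its annotation and its strand setting were not given in the sources used here. Reads of overlapping or antisense gene pairs may therefore be mixed. The 3 control columns were used, with the 6 treated libraries only as a scale for traces and for TMM factors (edgeR 4.0.16, R 4.3.3).

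Of 46095 symbols, 34520 had a length in GENCODE M21 (GRCm38): 33980 by symbol, 527 by an older symbol and 13 mitochondrial. They held over 99.6% of each library's counts. TPM used merged exons, and ranks cover 21110 protein-coding genes with a length. Values are means ± SD over 3 libraries. Neighbours were said to differ where ranges did not overlap. No filter on low counts was set for levels, shares and ranks, and no test was made. The chi-square and Spearman values used genes with at least 10 counts in every control library. The coefficient of variation used genes with a mean of at least 100 counts. Shared sequence was the share of 31-base words found in transcripts of other genes. The chi-square per degree of freedom and the TPM step were tested on simulated data, whereas the share and rank steps were not.

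The gene lists and genes were chosen with earlier results of these data known. Named are the 20 highest genes by TPM and by counts, in each list the 4 highest and members below 1 TPM that mark another state, the 5 most variable genes with at least 100 counts, and inflammatory genes. A few genes within this rule are left out of the text. Genes outside it were named after their values were seen. Alternatives were other lengths, denominators, thresholds and scaling, and leaving out each library.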

Additional observations from a re-analysis of the deposited data

How the results depend on the processing

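Leaving out each control library in turn, which with 3 libraries can move a mean by only part of their SD and so does not test stability, gave 601.5 to 612 genes holding 50% of the counts. Sepp1 and B2m exchanged ranks without replicate 1. The number of coding genes at 1 TPM stayed within 1.5 times of 10632 under every alternative (9025 at a threshold of 5 TPM to 11141 at 0.5 TPM). As a share of the summed TPM in place of the counts, macrophage identity genes held 9.69%, the list of lysosomal proteases and associated proteins 8.48%, lysosomal hydrolases and membrane proteins 2.50%, mitochondrially encoded genes 2.86% and ribosomal proteins 2.48%. Dividing the shares by the TMM factors over all 9 libraries gave 4.76% for identity genes, 6.06% for proteases and 2.59% for hydrolases. It gave 0.466% for the proton pump, 0.961% for mitochondrially encoded genes and 0.942% for ribosomal proteins. These are rescaled values and not shares of a control library's counts. The control factors were 1.16, 1.15 and 1.17, and the treated libraries entered into them. Without mitochondrially encoded genes in the denominator the hydrolase share was 3.04%. The inflammatory list held 0.0414% in the mean of 3 libraries against 0.0180% in replicate 1. With the length of the longest transcript 16 of the 20 highest genes changed rank, all staying within the top 20. The level of a gene depends on this length and on shared sequence, and a count of 0 limits only what could be counted. No paired analysis was possible because no groups were compared.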

Other observations

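Predicted genes named Gm with a number held 0.805% ± 0.00771 of the counts but 3.79% of the summed TPM. The processed pseudogenes Gm15772 (2089 ± 45.1 TPM), Gm6166 (2062 ± 34.6 TPM) and Gm14303 (2050.2 ± 120.2 TPM) were the highest of those examined, each within the range of the 50 highest protein-coding genes. Of their 31-base words, 96.6%, 78.1% and 100% also occur in other genes' transcripts, and their exons span only 438, 409 and 171 bases. Whether their counts come from the pseudogenes or from their parent genes was not tested.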
